A study of Mus musculus with 15 samples.

Results

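The IL-6 and IL-12 family cytokines were followed here through 10 transcripts: 4 ligand genes of the IL-6 family (Il6, Il11, Lif and Osm), 5 subunit genes of the IL-12 family (Il12a, Il12b, Il23a, Il27 and Ebi3) and Il6st. The last encodes gp130, a receptor chain used by the IL-6 family ligands and by IL-27. They were chosen by name, with earlier results of these data known, so their counts beside all genes are a description only. The same holds for the gene lists used below. Each member matched 1 of the 56979 Ensembl identifiers in a table of mouse bone marrow cell transcripts. All 10 are described in every library.

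Polyadenylated RNA of wild-type mouse cells, with bone marrow as the labelled tissue, was sequenced in 15 libraries, 3 in each of 5 groups. The bone marrow-derived macrophages (BMDM, 9 libraries) were Control (vehicle), LPS (lipopolysaccharide, a bacterial outer membrane component that activates macrophages) and LPS_NZM (LPS with NZM). The BMSC (6 libraries) were Aged, with the treatment label H2HO, and Aged_NZM, labelled H2HO with NZM. NZM was given after the model drug, and the labels explain neither NZM, H2HO nor BMSC, nor give dose, time or the age of the animals. Not analysed here were cells given NZM alone and BMSC free of H2HO. The labels do not say whether the 3 libraries of a group came from separate animals or cultures, so the spread that the p-values rest on may be technical.

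IL-6 family cytokines signal through gp130, joined by a receptor chain that differs between ligands, and gp130 passes the signal mainly to JAK kinases and STAT3. IL-12 family cytokines are pairs of subunits: IL-12 is Il12a with Il12b, IL-23 is Il23a with Il12b, and IL-27 is Il27 with Ebi3, so a subunit transcript alone does not make a cytokine. Activated macrophages are a known source of IL-6, IL-12 and IL-27, and marrow stromal cells are a known source of IL-6, IL-11 and LIF.

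Levels are TPM, a length-corrected share of a library's transcripts that is scaled to the same total in each library, so that levels of different genes can be set side by side. The sequencing depth behind them is unknown. Replicates correlated in log2 values with r from 0.990 to 0.996, over genes with TPM of at least 1 in at least 3 of 15 libraries. Of all identifiers, 21360 to 23398 were above 0 in a library. The summed level of 10 macrophage markers was 22705 to 33325 TPM in the BMDM libraries and 20.8 to 33.7 TPM in the BMSC libraries, where Adgre1 was at 0 in all Aged libraries. In BMSC the stromal genes Col1a2 (436.2 ± 18.7 TPM in Aged, mean ± SD of 3 libraries) and Pdgfra (91.4 ± 3.82 TPM) were abundant, while Lepr was at 0.603 ± 0.0551 TPM. Thy1, Eng and Nt5e were also low in Aged, at 4.51 ± 1.11, 2.97 ± 0.841 and 2.78 ± 0.412 TPM. The BMDM libraries held stromal transcripts too, with a sum over 12 markers of 2694 to 3431 TPM. This was above the 1638 to 1713 TPM of Aged and below the 4870 to 4973 TPM of Aged_NZM. In BMDM the sum was mostly of Col1a1 and Col1a2 (1303 ± 60.6 and 1239 ± 43.6 TPM in Control), while Pdgfra was at 6.01 ± 0.955 TPM there. Col1a1 was at 308.8 ± 18.3 TPM in Aged. The summed level of 7 mast cell or basophil markers was 14.0, 522.2 and 194.9 TPM in Control replicates 1, 2 and 3. It was 123.0 to 246.0 TPM in LPS and LPS_NZM and at most 2.77 TPM in BMSC. Whether other cells were present was not tested. In bulk libraries fewer cells of a type and less RNA per cell cannot be told apart. Control replicate 3 stood apart from the other Control libraries in Il6 (4.64 TPM against 0.91 and 1.69), Il12b (1.07 against 0.00 and 0.06) and Il27 (3.76 against 2.05 and 1.71), and the members' changes against Control are also given without it.

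The proximal promoters of 4 members are shown because these genes span the patterns described below: Il6 and Il12b had the largest log2 changes with LPS and with NZM in BMDM, Ebi3 had a high level without LPS, and Il6st moved against the other members with LPS. Each sequence is the 250 bases before the annotated start on the plus strand, from RefSeq on GRCm38.p6, an older build than the GRCm39 named for the expression values. They lie at chr5:30012864-30013113 (Il6), chr11:44399813-44400062 (Il12b), chr17:55952373-55952622 (Ebi3) and chr13:112463820-112464069 (Il6st). Capitals mark matches to the AP-1 site TGANTCA, the C/EBP site TGCAAT or the NF-kB consensus; these and the core of the interferon-stimulated response element were searched on both strands.
Il6: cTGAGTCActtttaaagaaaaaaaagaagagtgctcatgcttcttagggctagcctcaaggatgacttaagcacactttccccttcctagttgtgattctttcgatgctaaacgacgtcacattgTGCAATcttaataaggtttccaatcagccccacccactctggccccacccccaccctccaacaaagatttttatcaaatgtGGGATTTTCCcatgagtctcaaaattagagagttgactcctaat
Il12b: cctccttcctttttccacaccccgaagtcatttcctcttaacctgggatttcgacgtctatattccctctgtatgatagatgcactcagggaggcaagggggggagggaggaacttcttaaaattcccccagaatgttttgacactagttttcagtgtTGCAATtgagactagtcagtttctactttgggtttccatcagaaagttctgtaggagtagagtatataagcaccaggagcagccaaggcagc
Ebi3: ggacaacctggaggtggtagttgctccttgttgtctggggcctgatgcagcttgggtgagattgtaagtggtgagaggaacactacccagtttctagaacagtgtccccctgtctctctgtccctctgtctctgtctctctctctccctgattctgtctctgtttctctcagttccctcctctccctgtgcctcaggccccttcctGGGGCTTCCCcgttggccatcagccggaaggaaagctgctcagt
Il6st: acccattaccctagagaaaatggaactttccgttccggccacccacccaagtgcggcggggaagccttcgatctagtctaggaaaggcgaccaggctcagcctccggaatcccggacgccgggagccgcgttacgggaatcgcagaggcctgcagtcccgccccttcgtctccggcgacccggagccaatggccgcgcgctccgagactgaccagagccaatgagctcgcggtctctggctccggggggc
The Il6 promoter held 1 match each of the AP-1, C/EBP and NF-kB motifs, the last lying 44 to 35 bases before the start. The Ebi3 promoter held an NF-kB match at the same distance, the Il12b promoter held a C/EBP site 92 to 87 bases before the start, and the Il6st promoter held none of the 4 motifs. The sequence table covered 7 of the 10 members with 9 promoters, of which 2 held the NF-kB match, 3 the C/EBP site, 3 the AP-1 site and 0 the interferon element core. Among all 32851 mouse promoters of this length, 3.9% held the NF-kB match, 7.32% the C/EBP site, 6.75% the AP-1 site and 2.98% the interferon element core. A match is a description of the letters and no evidence that a factor bound there.

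In BMDM, LPS raised the 9 cytokine and subunit transcripts and lowered Il6st. With NZM added to LPS, 8 of the 9 fell, Il6st rose to the highest level in BMDM, and Osm was not called. In BMSC the transcripts did not move together: with NZM, Il6 and Il6st rose while Lif and Il11 fell. The test was limma on log2(TPM + 1) with Benjamini-Hochberg adjustment over all tested genes, and a gene was called at an adjusted p under 0.05. A gene was tested when it reached a TPM of 1 in at least 3 libraries of the fit, the 9 BMDM or the 6 BMSC libraries. In BMDM Il23a reached this only in the LPS libraries, so this filter fixed its rise with LPS and its fall with NZM.

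For LPS against Control, all 10 members were called, beside 80.8% of the 14486 genes tested. Of the members, 9 rose, beside 15.2% of all genes, and 1 fell, beside 65.6%. The members' median log2 change was 2.98, against -0.48 over all genes. Il23a passed the filter only through the LPS libraries, so its rise here and its fall with NZM were fixed by the filter and support nothing. TPM are shares, so each library was also centred on the median of its genes: the members then had the same calls, beside 36.5% of genes higher and 29.1% lower. Without Control replicate 3, all 10 were still called, and the log2 changes not given below were 3.37 for Lif, 0.54 for Il11, 0.88 for Osm, 3.31 for Il12a, 2.71 for Ebi3 and -0.99 for Il6st.

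For LPS_NZM against LPS, 8 members fell, 1 rose and 1 was not called, beside 16.9% of genes lower, 60.4% higher and 77.3% called in all. The 8 include Il23a, whose fall the filter fixed. The median log2 change was -2.07 for the members and 0.40 for all genes. With centring 9 members fell and 1 rose, beside 35.3% and 29.8% of genes. For LPS_NZM against Control, 8 members were higher and 1 lower, beside 18.6% and 29.1% of genes and 47.7% called in all, with medians of 1.01 and -0.07. With centring 9 were higher and 1 lower, beside 24.9% and 22% of genes. Without Control replicate 3, 9 members were called, Ebi3 gaining its call and Il23a losing it, and the log2 changes not given below were 1.58 for Lif, -0.43 for Il11, 0.97 for Osm, 0.96 for Il12a and 1.41 for Il6st. These comparisons share libraries with each other, so their counts are not independent.

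For Aged_NZM against Aged, 4 members could be tested and all 4 were called, 2 higher and 2 lower, beside 70.5% of 13865 genes called, 21.6% higher and 48.9% lower. The median log2 change of the 4 was 0.03, against -0.18 over all genes. With centring the calls were the same, beside 31.1% of genes higher and 35.4% lower. The other 6 stayed under the filter and are given as levels only.

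**Figure D1:**
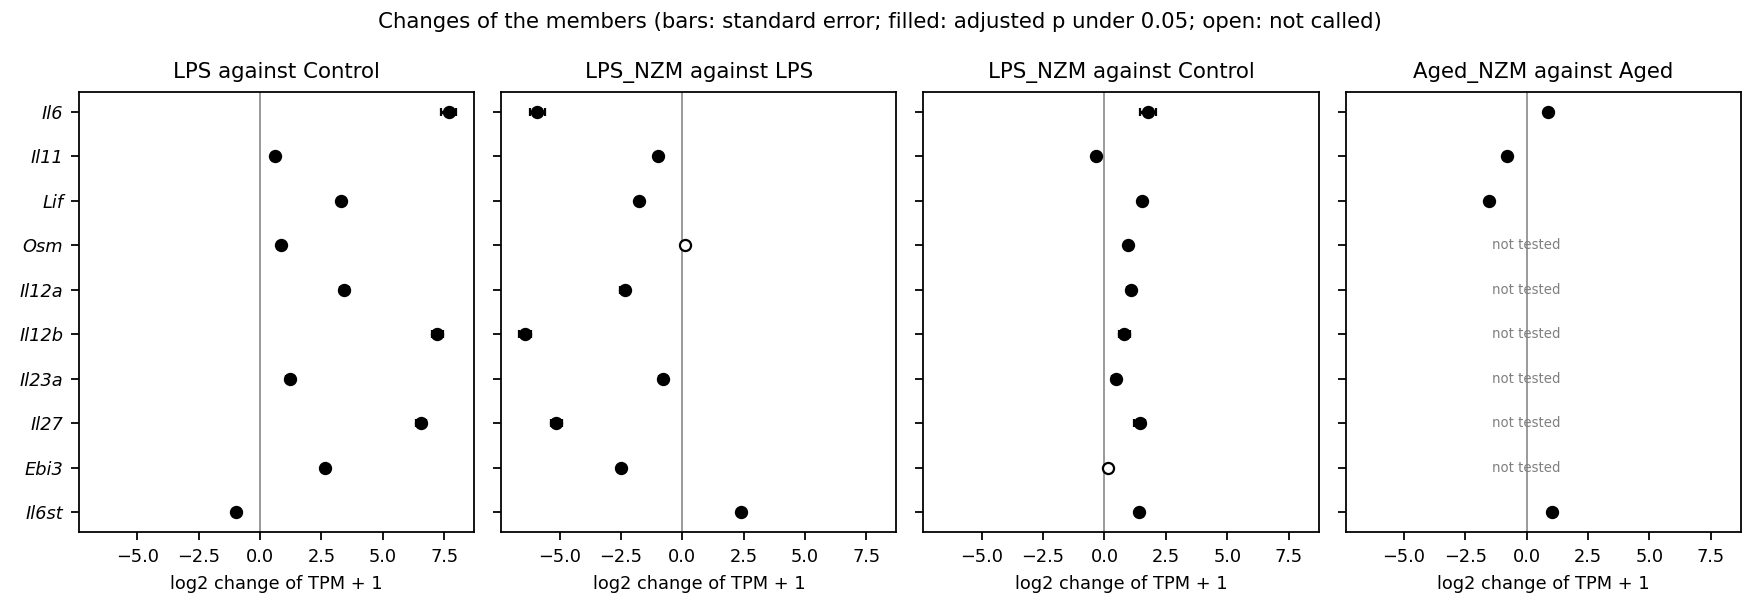
Log2 change of TPM + 1 of each member (rows) in 4 comparisons (panels). Points are limma estimates, bars their standard errors, and filled points have an adjusted p under 0.05. In the NZM comparison in BMDM 8 members lie left of 0, Osm lies near 0 and Il6st lies at 2.40, while in BMSC Il6 and Il6st lie right of 0 and Il11 and Lif left of it.

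Il6 (ENSMUSG00000025746) encodes interleukin-6, an inducer of the acute phase response and of B and T cell differentiation. It read 0.91, 1.69 and 4.64 TPM in Control, 666.4, 620.8 and 600.0 TPM in LPS, and 8.40, 10.94 and 9.31 TPM in LPS_NZM. The 3 groups did not overlap, and the highest LPS_NZM library lay far below the lowest LPS library. The rise with LPS was 261-fold in mean TPM (log2 change 7.68, SE 0.31, adjusted p = 6.50e-09), and 8.12 on the log2 scale without Control replicate 3. With NZM the mean was 65.9-fold lower than in LPS (log2 change -5.91, SE 0.31, adjusted p = 4.51e-08). It was still 3.96-fold above Control (log2 change 1.77, SE 0.31, adjusted p = 0.00107, or 2.21 without Control replicate 3).

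In BMSC the same transcript read 85.3, 89.4 and 87.9 TPM in Aged and 149.1, 168.1 and 162.0 TPM in Aged_NZM. All Aged_NZM libraries exceeded all Aged libraries, and Aged lay above both Control and LPS_NZM. The difference was 1.82-fold (log2 change 0.86, SE 0.05, adjusted p = 2.69e-07). Il6 thus fell with NZM in LPS-treated BMDM and rose with NZM in H2HO-treated BMSC. The difference between these 2 responses, tested over all 15 libraries, was 6.76 on the log2 scale (SE 0.37, adjusted p = 6.32e-10). Cell type and model drug differ together between these arms and cannot be told apart.

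Lif (ENSMUSG00000034394) encodes leukaemia inhibitory factor, known for keeping mouse embryonic stem cells undifferentiated and for its action on bone cells. It read 5.46, 7.10 and 7.02 TPM in Control, 72.8, 74.9 and 73.0 TPM in LPS, and 20.6, 21.3 and 20.2 TPM in LPS_NZM. LPS raised it 11.3-fold (log2 change 3.32, SE 0.08, adjusted p = 1.65e-10) and NZM lowered it 3.55-fold (log2 change -1.78, SE 0.08, adjusted p = 1.57e-08). The LPS_NZM level stayed 3.17-fold above Control, with no overlap (log2 change 1.54, adjusted p = 2.42e-07).

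In BMSC, Lif read 40.9, 37.2 and 36.8 TPM in Aged and 13.3, 12.5 and 12.0 TPM in Aged_NZM, a 3.04-fold fall without overlap (log2 change -1.53, SE 0.06, adjusted p = 2.95e-08). Lif and Il6 therefore moved in opposite directions in BMSC but in the same direction in BMDM. The ratio of Il6 to Lif TPM was 2.09 to 2.40 in Aged and 11.2 to 13.5 in Aged_NZM, whereas it was 8.22 to 9.16 in LPS and 0.408 to 0.513 in LPS_NZM. The fall of Lif differed little between the cell types, by 0.25 on the log2 scale (SE 0.11, adjusted p = 0.0472), a call that was lost when any of 10 single libraries was left out, and the difference was 0.87 with centring.

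Il11 (ENSMUSG00000004371) encodes interleukin-11, a gp130 ligand made by stromal cells and known in fibrosis and bone turnover. Its levels were low in every group, at 5.82, 6.64 and 5.04 TPM in Control, 9.96, 9.71 and 8.78 TPM in LPS, and 4.40, 4.54 and 4.10 TPM in LPS_NZM. The groups did not overlap, and LPS_NZM lay below Control. LPS raised it 1.63-fold (log2 change 0.62, SE 0.10, adjusted p = 0.000187, or 1.17 with centring). NZM lowered it 2.18-fold (log2 change -0.97, SE 0.10, adjusted p = 7.19e-06), to 1.34-fold below Control (log2 change -0.35, SE 0.10, adjusted p = 0.0150). This last call was lost without Control replicate 2 (log2 change -0.26, adjusted p = 0.0542).

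In BMSC, Il11 read 3.73, 4.04 and 3.77 TPM in Aged and 1.96, 1.66 and 1.76 TPM in Aged_NZM. It was 2.14-fold lower with NZM, without overlap (log2 change -0.80, SE 0.10, adjusted p = 6.65e-05). A difference between its NZM responses in BMSC and BMDM was not called (0.17 on the log2 scale, adjusted p = 0.217), but was called with centring (0.80, adjusted p = 4.66e-05).

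Osm (ENSMUSG00000058755) encodes oncostatin M, a gp130 ligand of myeloid cells. It read 4.65, 6.39 and 5.92 TPM in Control, 9.57, 12.18 and 11.16 TPM in LPS, and 11.42, 10.72 and 13.06 TPM in LPS_NZM, and it was listed at 0 in all 6 BMSC libraries. The LPS and LPS_NZM libraries overlapped, and both lay above Control. Osm rose 1.94-fold with LPS (log2 change 0.85, SE 0.12, adjusted p = 9.61e-05, or 1.40 with centring) and stood 2.08-fold above Control in LPS_NZM (log2 change 0.94, SE 0.12, adjusted p = 0.000155). Between LPS_NZM and LPS the log2 difference was 0.09 (SE 0.12, adjusted p = 0.514), and it turned to -0.37 and was called with centring (adjusted p = 0.0169). Of the 9 cytokine genes, only Osm was not called lower with NZM on the TPM scale, but the call of Il23a was fixed by the filter.

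**Figure D2:**
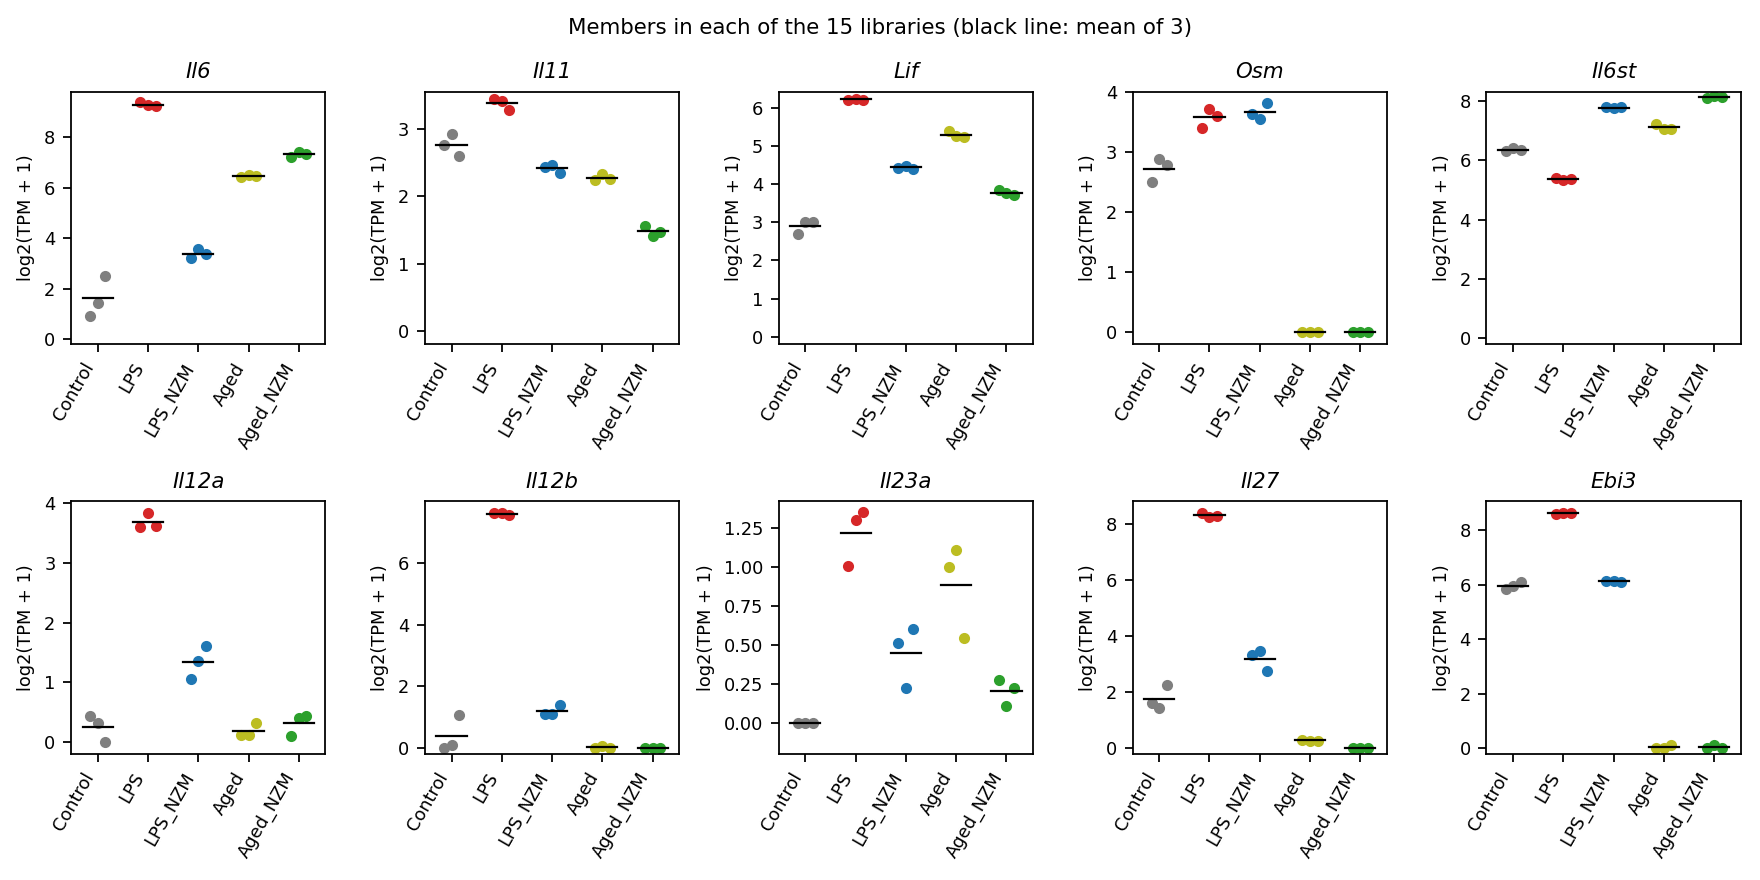
Level of each member in each of the 15 libraries, as log2(TPM + 1), by group; points are libraries and black lines are means of 3. Il6, Lif and the IL-12 family genes peak in the LPS libraries, Il6st is lowest there among all groups, and Osm sits at 0 in all 6 BMSC libraries.

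Il12b (ENSMUSG00000004296) encodes p40, the subunit shared by IL-12 and IL-23. It read 0.00, 0.06 and 1.07 TPM in Control, 195.5, 195.3 and 186.6 TPM in LPS, and 1.14, 1.12 and 1.59 TPM in LPS_NZM. In BMSC no library exceeded 0.05 TPM. The rise with LPS was 7.22 on the log2 scale (SE 0.23, adjusted p = 1.35e-09), or 7.55 without Control replicate 3. With NZM the mean fell from 192.5 ± 5.04 TPM to 1.28 ± 0.266 TPM (log2 change -6.41, SE 0.23, adjusted p = 3.03e-09). The LPS_NZM libraries lay only just above Control replicate 3 (log2 change against Control 0.81, SE 0.23, adjusted p = 0.0175, or 2.36 with a pseudocount of 0.1). That difference was 1.14 without Control replicate 3, 0.62 without Control replicate 1 (adjusted p = 0.0592), 0.66 without Control replicate 2 (adjusted p = 0.0659) and 0.71 without LPS_NZM replicate 3 (adjusted p = 0.0583).

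Il12a (ENSMUSG00000027776) encodes p35, the partner that makes IL-12 of p40. It read 0.36, 0.25 and 0.00 TPM in Control, 11.16, 13.34 and 11.32 TPM in LPS, and 1.07, 1.57 and 2.04 TPM in LPS_NZM, without overlap. In BMSC it stayed at or below 0.35 TPM. LPS raised it (log2 change 3.43, SE 0.17, adjusted p = 2.73e-08, or 5.57 with a pseudocount of 0.1), NZM lowered it 7.65-fold (log2 change -2.35, SE 0.17, adjusted p = 4.92e-07), and the LPS_NZM level remained above Control (log2 change 1.08, SE 0.17, adjusted p = 0.000508, or 2.67 with a pseudocount of 0.1).

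The 2 partners of IL-12 did not fall in proportion. The ratio of Il12b to Il12a TPM was 17.5, 14.6 and 16.5 in the LPS libraries and 1.07, 0.713 and 0.779 in the LPS_NZM libraries. Under LPS the p40 transcript was thus in large excess, and with NZM the partners were near parity. The LPS_NZM ratios rest on levels of 1 to 2 TPM.

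Il23a (ENSMUSG00000025383) encodes p19, the subunit particular to IL-23. It was listed at 0.00 TPM in all Control libraries and read 1.01, 1.47 and 1.56 TPM in LPS and 0.43, 0.17 and 0.52 TPM in LPS_NZM. Its levels were near the filter in every group where it was present. As it entered the test through the LPS libraries alone, its log2 changes of 1.22 with LPS (3.83 with a pseudocount of 0.1) and -0.77 with NZM (-1.68, or -1.24 with centring) are given with no test. The difference from Control in LPS_NZM (log2 change 0.45, adjusted p = 0.0431, or 2.16 with a pseudocount of 0.1) was lost when any Control library (adjusted p = 0.0787 to 0.0886), LPS_NZM replicate 1 (0.114) or LPS_NZM replicate 3 (0.123) was left out, and with a replicate block (0.0627).

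In BMSC, Il23a read 1.00, 1.16 and 0.46 TPM in Aged and 0.21, 0.08 and 0.17 TPM in Aged_NZM. These groups did not overlap, but the gene stayed under the filter and was not tested. The p40 transcript that p19 pairs with was at or near 0 in these libraries.

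Il27 (ENSMUSG00000044701) encodes p28, the subunit particular to IL-27. It read 2.05, 1.71 and 3.76 TPM in Control, 337.8, 308.1 and 313.2 TPM in LPS, and 9.08, 10.10 and 5.84 TPM in LPS_NZM. The 3 groups did not overlap, and LPS_NZM lay much nearer to Control than to LPS. LPS raised it 128-fold (log2 change 6.56, SE 0.22, adjusted p = 1.54e-09, or 6.80 without Control replicate 3) and NZM lowered it 38.3-fold (log2 change -5.13, SE 0.22, adjusted p = 8.88e-09). It stayed 3.33-fold above Control (log2 change 1.43, SE 0.22, adjusted p = 0.000447, or 1.67 without Control replicate 3). In BMSC it read 0.20 to 0.24 TPM in Aged and was listed at 0 in Aged_NZM.

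Ebi3 (ENSMUSG00000003206), the partner of Il27, was the one IL-12 family transcript that was abundant without LPS. It read 55.9, 61.3 and 67.4 TPM in Control, 386.9, 391.8 and 388.5 TPM in LPS, and 69.4, 68.8 and 66.6 TPM in LPS_NZM, with at most 0.09 TPM in BMSC. Control and LPS_NZM overlapped, and both lay far below LPS. The rise with LPS was 6.32-fold (log2 change 2.64, SE 0.06, adjusted p = 6.26e-11) and the fall with NZM 5.70-fold (log2 change -2.49, SE 0.06, adjusted p = 9.62e-11). Against Control, LPS_NZM differed by 0.15 on the log2 scale and was not called (adjusted p = 0.05003). It was called without Control replicate 3 (0.22, adjusted p = 0.00341) and with centring (0.23, adjusted p = 0.0112).

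The ratio of Ebi3 to Il27 TPM was 27.3, 35.8 and 17.9 in Control, 1.15, 1.27 and 1.24 in LPS, and 7.65, 6.81 and 11.4 in LPS_NZM. The IL-27 partners were thus close to parity only in the LPS libraries, the reverse of the IL-12 partners. Both genes overlap a gene on the opposite strand, and whether counting used strand is not given in the sources used here. Apobr, opposite Il27, was at 105.5 ± 3.39, 92.3 ± 1.66 and 88.5 ± 2.25 TPM in Control, LPS and LPS_NZM, and Gm16712, antisense to Ebi3, was at 2.43, 12.1 ± 0.886 and 2.23 TPM. No overlap was found for the other 8 members.

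**Figure D3:**
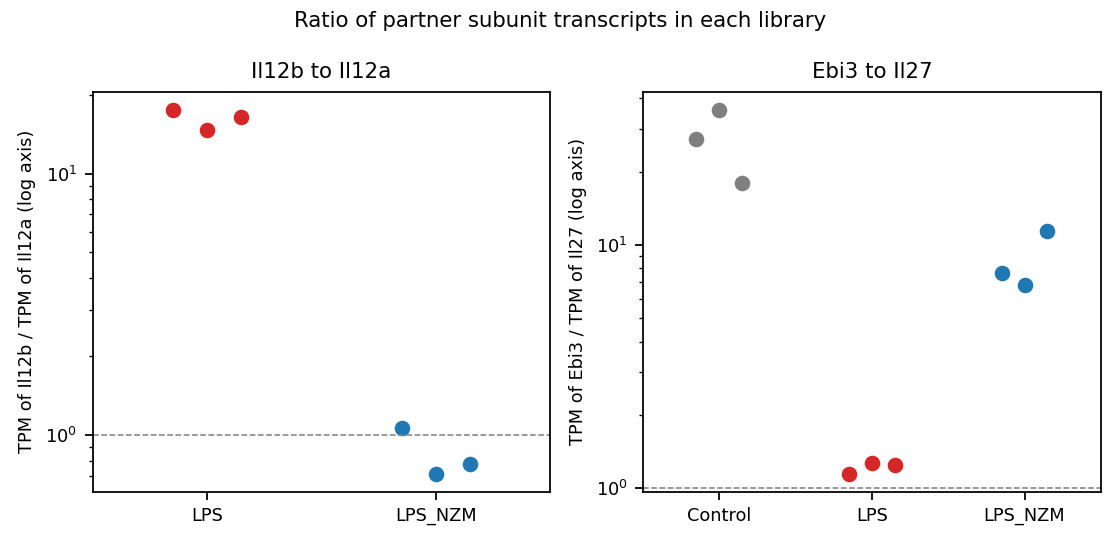
Ratio of the TPM of partner subunits in each library (log axis) for Il12b to Il12a, left, and Ebi3 to Il27, right; the dashed line marks equal levels. The Il12b to Il12a ratio is 14.6 to 17.5 in LPS and 0.713 to 1.07 in LPS_NZM, and the Ebi3 to Il27 ratio is 1.15 to 1.27 in LPS and higher in the other 2 BMDM groups.

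Il12b, Il12a and Il23a are also known products of dendritic cells. The summed level of 7 dendritic cell markers was 5.33 to 16.5 TPM in Control, with the highest sum in Control replicate 3, 25.8 to 33.9 TPM in LPS and 7.48 to 9.07 TPM in LPS_NZM. Of these markers 3 could be tested, Ccr7, Zbtb46 and Siglech, and they did not move together. Ccr7 alone averaged 21.7 TPM in LPS, so it made most of the sum there. Siglech averaged 5.29, 4.10 and 0.587 TPM in Control, LPS and LPS_NZM and was not called with LPS or with NZM. The chemokine receptor gene Ccr7 rose with LPS (log2 change 3.21) and fell with NZM (-3.05), while Zbtb46, a transcription factor of dendritic cells, was not called with LPS (-0.30, adjusted p = 0.0925) and rose with NZM from 1.43 ± 0.336 to 4.93 ± 0.735 TPM (1.29). The summed neutrophil markers were 1534 to 1725 TPM in Control and 2125 to 2672 TPM in LPS and LPS_NZM. The part of either cell type in the cytokine levels was not tested.

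Il6st (ENSMUSG00000021756), the gp130 chain used by IL-6, IL-11, LIF, oncostatin M and IL-27, moved against the ligands in BMDM. It read 77.4, 84.1 and 79.7 TPM in Control, 41.2, 39.1 and 40.0 TPM in LPS, and 217.9, 213.0 and 218.4 TPM in LPS_NZM. No groups overlapped. LPS lowered it 2.00-fold (log2 change -0.99, SE 0.04, adjusted p = 4.50e-09, or -0.44 and still called with centring). With NZM it was 5.40-fold higher than in LPS (log2 change 2.40, SE 0.04, adjusted p = 9.00e-12) and 2.69-fold higher than in Control (log2 change 1.42, SE 0.04, adjusted p = 1.80e-09).

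In BMSC, Il6st read 149.1, 130.7 and 131.3 TPM in Aged and 271.8, 284.9 and 281.1 TPM in Aged_NZM. It rose 2.04-fold without overlap (log2 change 1.02, SE 0.05, adjusted p = 1.56e-07), so that NZM raised this transcript in both cell types. The rise was smaller in BMSC than in BMDM by 1.38 on the log2 scale (SE 0.07, adjusted p = 1.59e-10), or by 0.76 with centring. The ratio of Il6 to Il6st TPM was 15.0 to 16.2 in LPS and 0.0385 to 0.0514 in LPS_NZM, while in BMSC it was 0.572 to 0.684 in Aged and 0.549 to 0.590 in Aged_NZM, where the ligand and the receptor rose together.

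Receptor chains of these families other than Il6st were read from a list of 9 genes. Of the 7 tested in BMDM, 2 rose and 2 fell with LPS, and 3 rose and 2 fell with NZM. The shares over all genes stand beside this and each later list: 15.2% higher and 65.6% lower with LPS, 60.4% and 16.9% with NZM. With centring these counts were 4 and 1, and 3 and 3 (all genes 36.5% and 29.1%, and 29.8% and 35.3%). Without Control replicate 3, 2 receptor genes rose and 3 fell with LPS, and the counts of the other lists with LPS were the same. Il23r was tested only through the LPS libraries, so its calls were fixed by the filter. The list's median log2 change was -0.19 with LPS and 0.23 with NZM, against -0.48 and 0.40 over all genes. Il6ra, the IL-6 receptor chain, was at 49.0 ± 2.00, 21.1 ± 2.09 and 43.8 ± 2.61 TPM in Control, LPS and LPS_NZM, a fall with LPS (log2 change -1.18, adjusted p = 1.33e-07) and a rise with NZM (1.02, adjusted p = 4.09e-07). Among the BMDM groups, it was lowest in LPS, as was Il6st. Il11ra1, the IL-11 receptor chain, was at 24.0 ± 2.87, 13.9 ± 0.892 and 46.8 ± 1.74 TPM. It rose with NZM (log2 change 1.68, adjusted p = 2.97e-08), while its fall with LPS (-0.74, adjusted p = 1.55e-05) was lost with centring (-0.19, adjusted p = 0.0794).

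Osmr, the oncostatin M receptor chain, went the other way, at 7.72 ± 0.476, 14.0 ± 0.798 and 6.84 ± 0.894 TPM in the 3 BMDM groups (log2 change with LPS 0.78, adjusted p = 2.05e-05; with NZM -0.94, adjusted p = 5.35e-06). Il27ra, the IL-27 receptor chain, rose with NZM from 0.963 to 4.39 ± 0.686 TPM (log2 change 1.46, adjusted p = 7.92e-06). Il23r, the IL-23 receptor chain, was at 2.47 ± 0.182 TPM in LPS and at 0.0167 and 0.0767 TPM in Control and LPS_NZM, a description with no test. The LIF receptor gene Lifr (6.24 to 8.38 TPM over the group means), Il12rb1 (2.64 to 3.23 TPM) and Il12rb2 (0.613 to 1.09 TPM, under the filter) were low in all BMDM groups.

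In BMSC, 6 receptor genes were tested, 4 rose with NZM and 1 fell, beside 21.6% and 48.9% of all genes. Osmr was the most abundant of them, rising from 98.9 ± 2.87 to 221.1 ± 3.62 TPM (log2 change 1.15, adjusted p = 8.72e-09), although its ligand transcript Osm was at 0 there. Il6ra rose from 11.2 ± 1.497 to 19.2 ± 0.136 TPM (0.73, adjusted p = 3.47e-05), Lifr from 9.02 ± 1.18 to 15.6 ± 0.689 TPM (0.73, adjusted p = 4.60e-05) and Il11ra1 from 29.0 ± 0.857 to 39.2 ± 1.47 TPM (0.42, adjusted p = 3.03e-05). Thus the receptor chains for LIF and IL-11 rose in the libraries in which their ligand transcripts fell. The 1 that fell, Il12rb1, was at 1.34 ± 0.266 TPM in Aged and 0.603 ± 0.256 TPM in Aged_NZM. It passed the filter only through the Aged libraries, which fixed its direction, and its call was lost with centring. The summed stromal markers also rose in these libraries, from 1638 to 1713 TPM in Aged to 4870 to 4973 TPM in Aged_NZM, with 9 of 11 tested markers called higher. Their part in these rises was not tested.

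**Figure D4:**
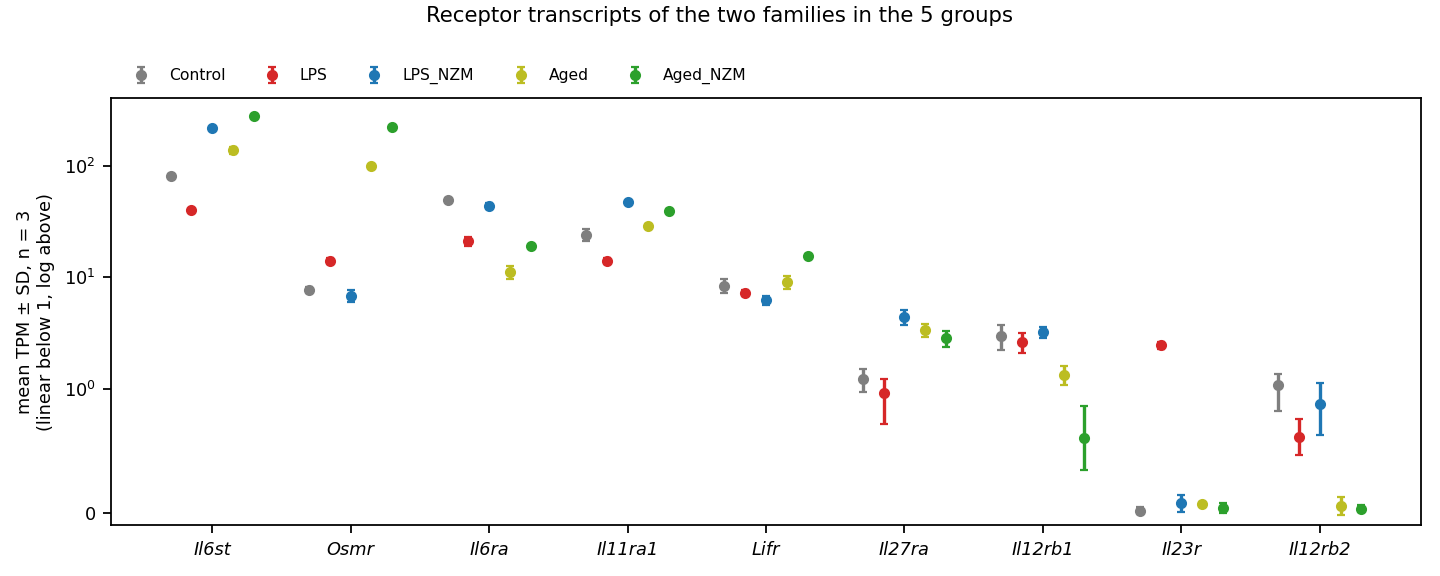
Mean TPM ± SD (n = 3) of Il6st and the other receptor chains in the 5 groups, on an axis that is linear below 1 and logarithmic above. Il6st, Il6ra and Il11ra1 are lowest in LPS among the BMDM groups, and Osmr is at 98.9 and 221.1 TPM in BMSC against 6.84 to 14.0 TPM in BMDM.

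Among 5 further gp130 ligand and partner genes, 3 were tested in BMDM, of which 1 rose and 1 fell with NZM (0 and 1 with centring). In BMSC 4 were tested, of which 2 rose and 1 fell, beside 21.6% and 48.9% of all genes. Clcf1, which encodes a cytokine of the IL-6 family, was at 26.4 ± 0.505, 27.5 ± 0.84 and 22.3 ± 0.704 TPM in Control, LPS and LPS_NZM, a fall with NZM (log2 change -0.29, adjusted p = 0.000193). In BMSC it was more abundant and fell as Lif and Il11 did, from 109.4 ± 6.44 to 80.5 ± 5.94 TPM (-0.44, adjusted p = 0.000140).

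Downstream of the receptors, a list of 17 JAK-STAT genes was read. With LPS 12 rose and 4 fell (14 and 1 with centring), and with NZM 5 rose and 8 fell (2 and 13 with centring). Its median log2 change was 0.70 with LPS and -0.11 with NZM. Socs3, the feedback inhibitor that binds gp130, was at 12.2 ± 3.24, 1138 ± 8.22 and 47.1 ± 1.96 TPM in Control, LPS and LPS_NZM (log2 change with NZM -4.57, SE 0.13, adjusted p = 4.89e-10), the same order as Il6. Cish and Socs2, feedback inhibitors known as STAT5 targets, rose instead: Cish from 4.07 ± 0.216 to 74.9 ± 3.67 TPM (3.90, adjusted p = 3.52e-11) and Socs2 from 2.41 ± 0.200 to 11.6 ± 0.457 TPM (1.88, SE 0.09).

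In BMSC, 10 of 16 tested genes of that list rose with NZM and 2 fell, beside 21.6% and 48.9% of all genes (13 and 1 with centring, beside 31.1% and 35.4%). Socs3 rose from 43.0 ± 0.882 to 84.1 ± 0.679 TPM (log2 change 0.95, adjusted p = 2.76e-08), along with Il6 and Il6st. Cish (0.75, adjusted p = 4.18e-06) and Socs2 (1.14, adjusted p = 1.86e-07) rose here as well.

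A list of 18 target genes of gp130 and STAT3 had a median log2 change of 2.41 with LPS, with 14 rising and 3 falling (15 and 2 with centring). With NZM in BMDM the median was -1.18, with 14 falling and 2 rising (16 and 1 with centring). In BMSC the median was 0.95, with 11 of 17 tested rising and 3 falling, beside 21.6% and 48.9% of all genes. With centring 14 rose and 3 fell, beside 31.1% and 35.4%. Saa3, an acute phase serum amyloid, was at 83.8 ± 33.0, 10172 ± 323 and 149.1 ± 11.3 TPM in Control, LPS and LPS_NZM, and it rose in BMSC from 3504 ± 253 to 18868 ± 328 TPM (log2 change 2.43, adjusted p = 1.30e-09). Lcn2, which encodes the siderophore-binding lipocalin 2, fell with NZM in BMDM from 1681 ± 14.5 to 157.2 ± 9.42 TPM and rose in BMSC from 631.7 ± 9.51 to 1457 ± 8.59 TPM (1.20, adjusted p = 2.36e-09). Hp, haptoglobin, fell in BMDM from 1066 ± 14.2 to 101.6 ± 0.281 TPM and rose in BMSC from 11.5 ± 0.714 to 84.7 ± 6.40 TPM (2.78, adjusted p = 1.77e-09). These 3 genes therefore had the directions of Il6 in both cell types. Whether gp130 or STAT3 took part in the changes of this list was not tested.

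A list of 19 transcription factors and RNA-binding proteins known to act on Il6 or Il12b had a median log2 change of 1.74 with LPS and -0.91 with NZM in BMDM. With LPS 15 rose and 4 fell (19 and 0 with centring), and with NZM 14 fell and 3 rose (17 and 0 with centring). The list was not split by whether a gene raises or lowers Il6 or Il12b, so the counts give no direction of effect on them. Nfkbiz, the nuclear IkB protein needed for full Il6 and Il12b expression in macrophages, was at 11.3 ± 0.968, 268.3 ± 3.27 and 22.5 ± 0.367 TPM in Control, LPS and LPS_NZM (log2 change with NZM -3.52, adjusted p = 8.08e-12). Cebpd, a C/EBP factor, was at 14.9 ± 0.892, 143.4 ± 3.81 and 20.6 ± 0.372 TPM (-2.74, adjusted p = 1.80e-11). Batf2, an AP-1 family factor, fell with NZM from 76.1 ± 1.11 to 9.44 ± 0.964 TPM (-2.89, adjusted p = 1.77e-09), and Bcl3, another IkB protein, from 154.3 ± 3.94 to 33.9 ± 2.04 TPM (-2.16, adjusted p = 3.78e-10). All 4 were above Control in LPS_NZM, as Il6 was, with log2 changes of 0.44 to 0.93.

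In BMSC, 6 of 16 tested genes of this list rose with NZM and 7 fell, beside 21.6% and 48.9% of all genes. With centring 7 rose and 5 fell, beside 31.1% and 35.4%. The list's median log2 change was -0.06, against -0.18 over all genes. Cebpd rose from 44.3 ± 0.761 to 106.8 ± 6.23 TPM (1.25, adjusted p = 2.46e-08). Nfkbiz moved much less, from 74.9 ± 3.35 to 81.3 ± 1.41 TPM (0.12, adjusted p = 0.0314), and Bcl3 likewise (0.22, adjusted p = 0.0130).

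The difference between the NZM responses of BMSC and BMDM was called for 7 members of 10, 6 of them higher in BMSC and 1 lower, beside 72% of 16696 genes called, 17.2% higher and 54.8% lower (39.9% and 28.7% with centring). The median was 1.37 for the members and -0.45 for all genes. Only Il6, Lif, Il11 and Il6st had levels in BMSC that passed the filter there. For Ebi3, Il12a, Il12b and Il27 the difference restates the fall in BMDM, since their BMSC levels were at most 0.35 TPM.

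Ordered by mean TPM, Il6, Il27, Il12b, Il12a, Ebi3, Lif and Il11 were highest in LPS, and Il6st was highest in Aged_NZM, followed by LPS_NZM, Aged, Control and LPS, with no overlap between neighbours. Il6 ran in the order LPS, Aged_NZM, Aged, LPS_NZM and Control, and Lif in the order LPS, Aged, LPS_NZM, Aged_NZM and Control, again without overlap between neighbours. Neighbours overlapped for Osm between LPS_NZM and LPS, for Ebi3 between LPS_NZM and Control, for Il23a between LPS, Aged, LPS_NZM and Aged_NZM in turn, and for Il12a, Il12b, Ebi3 and Osm among groups at or near 0.

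The genes most like 4 members over the 15 libraries were taken by Pearson's r of log2(TPM + 1) among 13623 genes. For Il6 they were Nfkbiz (r = 0.986), the nitric oxide synthase gene Nos2 (0.978) and the superoxide dismutase gene Sod2 (0.974). For Il12b they were Shisa3 (0.997), the cytokine gene Il19 (0.996) and the guanylate-binding protein gene Gbp2 (0.996). For Lif they were the arginase gene Arg2 (0.984), Ezr (0.974) and Tmem132a (0.967), and for Osm the kinase gene Fgr (0.998), Ms4a4a (0.998) and Rgs16 (0.997). The libraries fall into 5 groups, so r mostly reflects 5 group levels and is a description only.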

How the data were processed

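RNA of 15 mouse libraries (9 BMDM, 6 BMSC) was analysed from 1 table of TPM deposited by the authors, with 56979 Ensembl gene identifiers. The tools fastp, HISAT2, StringTie and RSEM and the build GRCm39 are given, without versions or roles, per the submitters' processing notes; the annotation is not given in the sources used here. Every column summed to the same total, so no depth, and hence no counting error, can be stated. Symbols from a name table matched 52072 identifiers.

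Values were tested as log2(TPM + 1), which understates the change of low genes, with limma 3.58.1 in R 4.3.3 (two-sided, moderated by eBayes with its trend option) on genes with a TPM of at least 1 in at least 3 libraries of the fit. BMDM comparisons came from the 9 BMDM libraries, the BMSC comparison from the 6 BMSC libraries and the difference between the NZM responses from all 15. P-values were adjusted by Benjamini-Hochberg over all tested genes. The procedure was tested on simulated data. Figures used Python 3.11.15 and matplotlib 3.10.9.

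All 10 members are named whatever their values. From each pathway list, up to 4 called genes with the largest absolute log2 change in LPS_NZM against LPS whose higher group averaged 5 TPM or more are named, together with all receptors by level, and for Il6, Il12b, Lif and Osm the 3 genes with the highest r, predicted genes left out. Of the genes this rule names, 2 are not reported here. Ccr7, Zbtb46 and Siglech were named, and the lists refitted without Control replicate 3, after the values were seen. The members and lists were chosen with earlier results of these data known. The fits were repeated with median centring, without the filter, with a minimum TPM of 5, with a pseudocount of 0.1, with quantile normalization, without the trend, with a replicate block, with only the compared groups in the fit, and without each library in turn.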

Additional observations from a re-analysis of the deposited data

Results flagged for a closer look

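The NZM response, as a log2 change of TPM + 1, differed between BMSC (Aged_NZM against Aged) and BMDM (LPS_NZM against LPS) for 7 members by limma's test of the difference over 15 libraries, where 72% of all genes were called. Cell type and model drug differ together between these arms and cannot be told apart.

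Il6 differed by 6.76, from a fall of the level in all 3 LPS_NZM libraries below all LPS libraries and a rise in all 3 Aged_NZM libraries above all Aged libraries. Il6st differed by -1.38, a rise in both arms that was smaller in BMSC. Lif differed by 0.25, a fall in both arms, and its adjusted p of 0.0472 is close to the threshold.

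Il12b differed by 6.39, Il27 by 4.85, Ebi3 by 2.49 and Il12a by 2.48. Their transcripts were at or near 0 in all BMSC libraries, with at most 0.35 TPM, so these differences restate the fall in BMDM.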

How the results depend on the processing

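Of 650 values of members recomputed under other settings, 608 kept their direction and their side of the threshold, 39 changed their call (28 lost it and 11 gained it) and 7 changed direction, 4 of which also gained a call. All 148 counts of called genes or members stayed within 1.5 times the reported count. No value changed its call for LPS against Control or for Aged_NZM against Aged, 2 did for LPS_NZM against LPS, 17 for LPS_NZM against Control and 20 for the difference between NZM responses. The cause of these changes was not tested. Members that entered or left the test under another setting are not among these values. For Aged_NZM against Aged, with 4 members called, 3 to 6 were called under the settings that kept all libraries.

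The changes of direction concerned Osm and Il23a. For LPS_NZM against LPS, Osm turned to -0.37 with median centring and to -0.38 with quantile normalization (adjusted p = 0.0134). For the difference between NZM responses, Osm turned to 0.53 with centring and to 0.37 with quantile normalization, and Il23a, not called at 0.09, turned to -0.22 with a pseudocount of 0.1, -0.078 without Aged replicate 3 and -0.019 without LPS_NZM replicate 2. Lif lost its call for that difference under 4 of 7 other settings and without 10 of 12 single libraries (0.22 to 0.30, adjusted p up to 0.107), and it was 0.87 with centring.

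For LPS_NZM against Control, Il12b also lost its call without the filter (adjusted p = 0.0533) and with only the compared groups in the fit (0.0527), and Il11 (0.0736) and Il23a (0.0681) lost theirs with quantile normalization. Without 1 library each, the members called numbered 9 to 10 for LPS against Control, 8 to 9 for LPS_NZM against LPS, 6 to 9 for LPS_NZM against Control, 4 for Aged_NZM against Aged and 6 to 7 for the difference; Il23a falls below the filter without an LPS library. The labels do not say whether equal replicate numbers pair the samples. Same-numbered libraries correlated in their deviations from the group means with r from -0.08 to 0.20, which cannot show whether they were paired. A replicate block kept 37 of 39 member calls and lost those of Il23a against Control (0.45, adjusted p = 0.0627) and of Lif in the difference (0.25, adjusted p = 0.0638). Depth is unknown, so levels near 0 cannot be given a detection limit.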
